A study of Mus musculus with 6 samples.

Results

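The genes described here are 10 mouse genes that capture, break down, store, move or reduce iron and haem: Cd163, Hp, Hpx, Hmox1, Fth1, Ftl1, Slc40a1, Slc11a1, Tfrc and Steap4. They were chosen by name, for their roles in the recycling of iron by macrophages after muscle injury. Earlier results of these data were known when they were chosen. Each symbol matched 1 of the 32286 features in the count tables. Their mRNA was counted in single cells of regenerating quadriceps muscle from 6 mice, 1 library per mouse. The 3 CLL mice received clodronate liposomes, which kill phagocytes that engulf them, and the 3 SHAM mice received liposomes filled with PBS. Both groups were Cdh5-CreERT2:R26R-tdTomato mice, in which Cre under the endothelial Cdh5 promoter turns on a red fluorescent reporter, and both were injured by cardiotoxin, a toxin that kills muscle fibres. Liposomes were given into a vein 1 day before and 2 days after the injury, and muscle was taken on day 5 after injury. The submitters describe the ablation as partial and as aimed at circulating monocytes, so CLL muscle still held macrophages, and there was no uninjured muscle among these samples. The labels used here give no sex, age or liposome dose.

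Injured muscle is rich in haem, from haemoglobin of leaked red cells and from myoglobin of dying fibres. Haptoglobin (Hp) binds free haemoglobin and haemopexin (Hpx) binds free haem in plasma, and the macrophage receptor Cd163 takes up the haptoglobin complex. Inside the macrophage, haem oxygenase 1 (Hmox1) opens the haem ring and releases iron, ferritin shells built from heavy (Fth1) and light (Ftl1) chains store it, and ferroportin (Slc40a1), the known exporter of ferrous iron from cells, returns it to plasma. Slc11a1, also called Nramp1, moves divalent metal ions across the phagosome membrane, the transferrin receptor (Tfrc) brings in iron bound to transferrin, and Steap4 is a metalloreductase.

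Cells also set the output of 4 of these genes after transcription, through iron responsive elements, short mRNA hairpins bound by iron regulatory proteins when iron is scarce. An element in the 5′ UTR of a ferritin or ferroportin mRNA blocks its translation, and elements in the 3′ UTR of Tfrc protect that mRNA from decay. UMI counts read mRNA only, so the control of ferritin and ferroportin translation was not measured here, while the level of Tfrc mRNA was. The stretches are shown because they mark which members carry this control and where. They were found in GENCODE M21 transcripts (GRCm38) of all 10 members. The search was for a loop of CAGTG followed by any base, closed by 5 base pairs, G-U pairs allowed. A C was required next to these pairs on their 5′ side. In all, 7 such stretches were found in 4 members. Capitals mark the first 5 bases of the loop, each stretch is 30 bases long, and each is written 5′ to 3′ on the strand of its gene.
Fth1, 5′ UTR, chr19:9982732-9982761, plus strand: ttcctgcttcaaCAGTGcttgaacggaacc
Ftl1, 5′ UTR, chr7:45459778-45459807, minus strand: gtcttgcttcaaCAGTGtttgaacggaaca
Slc40a1, 5′ UTR, chr1:45925464-45925493, minus strand: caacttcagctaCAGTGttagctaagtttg
Tfrc, 3′ UTR, chr16:32631219-32631248, plus strand: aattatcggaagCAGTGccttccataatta
Tfrc, 3′ UTR, chr16:32631598-32631627, plus strand: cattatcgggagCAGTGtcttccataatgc
Tfrc, 3′ UTR, chr16:32631663-32631692, plus strand: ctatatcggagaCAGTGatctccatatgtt
Tfrc, 3′ UTR, chr16:32631710-32631739, plus strand: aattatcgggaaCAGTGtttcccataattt

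The 6 libraries held between 23873416 and 94841003 UMIs, and 46685 of 60282 barcodes were kept after filters on genes, mitochondrial UMIs and doublets. Kept cells numbered 3549, 10148 and 5630 in CLL, against 19346, 1848 and 6164 in SHAM, with medians of 13820, 1624 and 9145 UMIs per cell in CLL, against 2760, 9383 and 879 in SHAM. CLL 2 and SHAM 3 stand apart by their low median depth over all kept cells. Results are also given without both of them where that changes a call. SHAM 3 held 4837 of its cells in an unnamed cluster led by AY036118, Igf2 and Gm42418, and CLL 2 held 3809 of its cells in an unnamed cluster led by Ndufa4l2, Ltbp2 and Col8a1. Any 2 libraries shared 2 to 57 barcodes, at most 0.866% of a library. The cells fell into 29 clusters, of which 19 were named from marker genes, with the members and other iron genes left out of the clustering. Names ending in -like are rebuilt from those markers and are not the submitters' own. In the macrophage/monocyte-like class SHAM 3 was not shallow, with about 9233700 UMIs in 432 cells. SHAM 1 held about 18540000 UMIs in 5869 cells there, and SHAM 2 about 6084200 in 441 cells. Leaving out CLL 2 and SHAM 3 thus does not remove the shallowest SHAM library of that class. Levels are in CPM, a gene's UMI count scaled to 1000000 UMIs of all genes, summed over the cells of one class in one library. Fold changes are CLL over SHAM on the log2 scale from edgeR's quasi-likelihood test, with p adjusted by Benjamini-Hochberg over all genes tested in that class, and a call means an adjusted p under 0.05.

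The macrophage/monocyte-like class, called macrophage-like from here, held the highest levels of mRNA for haem oxygenase and ferritin in both groups. Among the 6 classes large enough in every library, it had the highest level of Hmox1, Fth1, Ftl1, Slc11a1 and Cd163 in 6 of 6 libraries. Over the class next in order, its lead on the log2(CPM + 1) scale was 2.81 for Hmox1 (myogenic-like), 1.52 for Fth1 (dendritic-like), 2.06 for Ftl1 (dendritic-like), 4.32 for Slc11a1 (dendritic-like) and 2.07 for Cd163 (myogenic-like). Over all 6 libraries, Hmox1 in macrophage-like cells lay between 202 and 409 CPM, and in fibroblast/tenocyte-like cells between 21.1 and 49.96 CPM. Each of these leads has an exact sign-flip p of 0.03125, the smallest that 6 libraries allow, and over the 50 neighbouring pairs tested the adjusted p is 0.223.

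Slc40a1, by contrast, had no single top class. Its 6-library means were 32.1 CPM in myogenic-like, 27.01 CPM in fibroblast/tenocyte-like, 24.04 CPM in macrophage-like and 19.4 CPM in myofibre-like cells, and no neighbours among these differed beyond their spread. Endothelial-like and dendritic-like cells held least Slc40a1, at 7.74 and 6.51 CPM. Tfrc was likewise not separable between myofibre-like (15.5 CPM), macrophage-like (12.1 CPM) and myogenic-like cells (10.7 CPM), and was lowest in fibroblast/tenocyte-like cells at 1.82 CPM. Hp and Steap4 had their highest mean among these 6 classes in fibroblast/tenocyte-like cells, at 60.7 and 66.6 CPM. Hp was higher there than in myofibre-like cells, the next class, in 6 of 6 libraries, and Steap4 was higher there than in endothelial-like cells in 5 of 6. Hpx stayed at or under 2.41 CPM in all 6 classes.

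**Figure D1:**
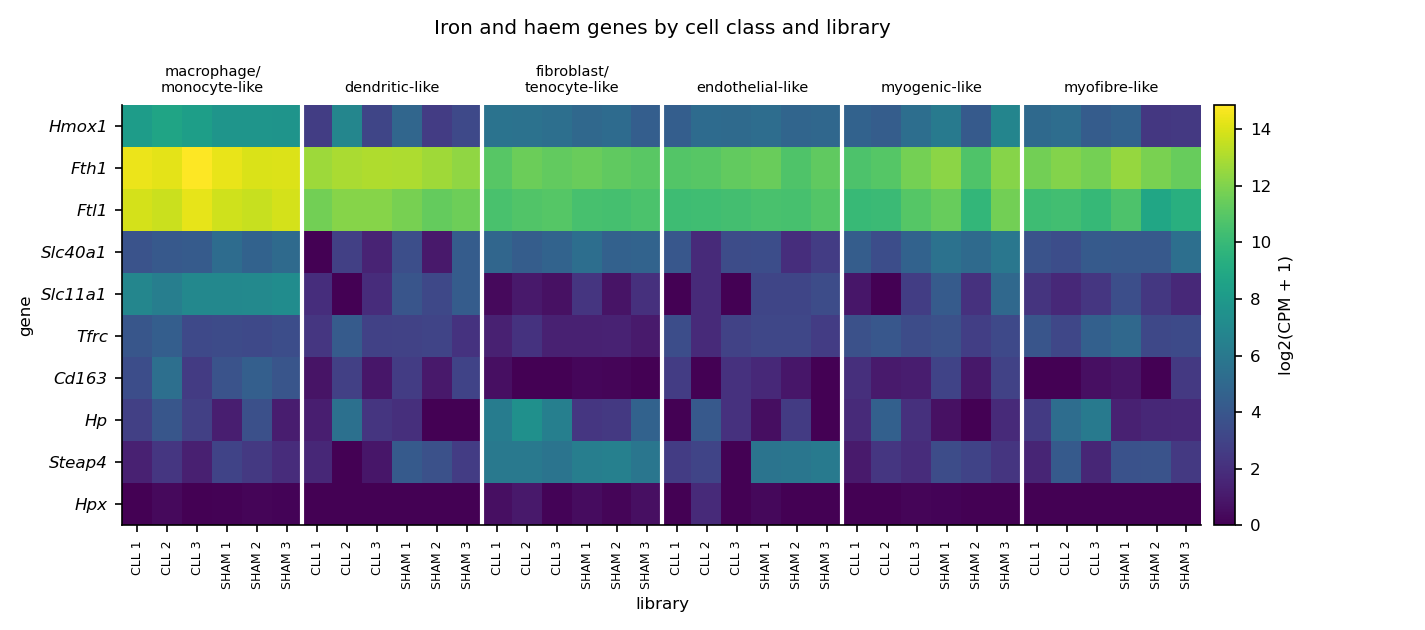
Heat map of the level of each member, as log2(CPM + 1) by colour, with genes in rows and libraries in columns; white lines separate 6 cell classes, and CLL libraries stand left of SHAM libraries in each. Hmox1, Fth1, Ftl1 and Slc11a1 are highest in macrophage/monocyte-like cells in every library, while Steap4 in endothelial-like cells reaches 69.2 CPM in SHAM and at most 7.24 CPM in CLL.

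Over the whole macrophage-like class, Hmox1, the gene for freeing iron from haem, was higher in CLL than in SHAM libraries. Slc40a1, the gene for exporting iron, was lower. Of the 9 members tested there, these 2 were called, and 4.96% of all 11564 genes tested were called. The ferritins, Slc11a1, Tfrc, Cd163, Hp and Steap4 did not pass the test, and Hpx had too few UMIs to test. In the larger clusters of the class, described below, Slc40a1 was called lower in each, while Hmox1 was called in none. The class held 684, 585 and 1069 cells in the CLL libraries, against 5869, 441 and 432 cells in the SHAM libraries. The 16 macrophage and monocyte markers, all of them detected, summed to 39372 to 45086 CPM in CLL, against 63796 to 72515 CPM in SHAM. The 10 proliferation markers, also all detected, summed to 293 to 393 CPM in CLL, against 93.5 to 220.2 CPM in SHAM. The part of either list in the member results was not tested.

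Slc40a1, the exporter, stood at 13.04, 16.98 and 18.2 CPM in the CLL libraries, against 37.5, 24.7 and 33.8 CPM in the SHAM libraries. Every CLL library lay below every SHAM library (log2 fold change -0.995 ± 0.17 SE, adjusted p = 0.00864). By share of cells with a Slc40a1 UMI, given further below, the groups overlapped. Slc40a1 was also lower in CLL in each of the 3 larger macrophage-like clusters, named here by their leading genes. In the F13a1-led cluster (cluster 11 in the plots), whose leading genes also include Mrc1, Ifnb1, Stab1, Ccl4 and Cd163, Slc40a1 was 17.3, 22.6 and 21.8 CPM in the CLL libraries, against 70.4, 45.6 and 38.3 CPM in the SHAM libraries (log2 fold change -1.30 ± 0.22 SE, adjusted p = 0.00224). In the H2-Aa-led cluster (cluster 9), marked by MHC class II genes, it was 1.01, 0 and 4.45 CPM in the CLL libraries, against 27.6, 19.2 and 19.2 CPM in the SHAM libraries (log2 fold change -3.13 ± 0.47 SE, adjusted p = 0.00344), from 1, 0 and 5 UMIs in CLL, against 231, 61 and 64 in SHAM. In the Gpnmb-led cluster (cluster 7), marked by Gpnmb, Mmp12 and Trem2, it was 14.9, 14.3 and 20.7 CPM in the CLL libraries, against 39.7, 22.3 and 47.02 CPM in the SHAM libraries (log2 fold change -1.07 ± 0.24 SE, adjusted p = 0.0252). The groups did not overlap in any of the 3 clusters, where such separation was seen for 23.1% of genes in the F13a1-led, 19.3% in the H2-Aa-led and 20.6% in the Gpnmb-led cluster. In the F13a1-led cluster 1 of 7 members tested was called, beside 5.28% of all genes, in the H2-Aa-led cluster 2 of 8 beside 1.59%, and in the Gpnmb-led cluster 2 of 8 beside 3.13%. The call in the F13a1-led cluster held in all 11 alternatives tried, with adjusted p up to 0.0208. In the whole class the adjusted p rose to 0.0733 without CLL 1 and 0.067 without CLL 2 and SHAM 3, and in the H2-Aa-led cluster to 0.0902 and 0.0769. Over all alternatives it ran from 9.19e-07 to 0.0733 in the class and from 4.36e-09 to 0.0902 in the H2-Aa-led cluster. The Gpnmb-led cluster lost the call without CLL 1 (0.157), CLL 2 (0.0945), CLL 3 (0.0648), SHAM 3 (0.0902) or both CLL 2 and SHAM 3 (0.205). Erythroid markers, with 7 of 8 in the files, summed in the class to 1.25, 0.576 and 1.07 CPM in CLL, against 30.5, 4.93 and 71.6 CPM in SHAM. The part of erythroid transcripts in the Slc40a1 values was not tested. With finer clustering, at a Leiden resolution of 2, a macrophage-like cluster led by Ifnb1, Ccl4 and Tnf stood apart from an F13a1-led one. The Ifnb1-led cluster held 265, 98 and 404 cells in CLL, against 172, 56 and 25 in SHAM. The F13a1-led one held 144, 251 and 149 in CLL, against 630, 49 and 50 in SHAM. The part of such a mix in the values of the F13a1-led cluster at the first resolution was not tested.

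Hmox1, the haem-splitting enzyme, stood in the whole class at 289, 409 and 317 CPM in the CLL libraries, against 212, 210.4 and 202 CPM in the SHAM libraries (log2 fold change 0.67 ± 0.15 SE, adjusted p = 0.0259). All 3 CLL libraries lay above all 3 SHAM libraries, as the libraries of 23.5% of genes tested did in one direction or the other. The call was lost without CLL 1 (0.0898), CLL 2 (0.0589), CLL 3 (0.0948), SHAM 3 (0.0993) or both CLL 2 and SHAM 3 (0.142), with adjusted p between 0.000654 and 0.142 over all 15 alternatives. Within the clusters Hmox1 was not called. In the F13a1-led cluster it was 384, 545 and 342 CPM in the CLL libraries, against 529, 325 and 343 CPM in the SHAM libraries (log2 fold change 0.13 ± 0.18 SE, adjusted p = 0.757). Gpnmb-led cells had 292, 308 and 351 CPM in the CLL libraries, against 197, 303 and 243 CPM in the SHAM libraries (log2 fold change 0.36 ± 0.19 SE, adjusted p = 0.369). In the H2-Aa-led cluster it was 117, 107 and 169 CPM in the CLL libraries, against 151, 122 and 107 CPM in the SHAM libraries (log2 fold change 0.12 ± 0.19 SE, adjusted p = 0.853). The groups overlapped in the F13a1-led and H2-Aa-led clusters, and in the Gpnmb-led cluster too, where CLL 1 lay below SHAM 2. Between clusters Hmox1 was higher in the F13a1-led than in the Gpnmb-led cluster in 5 of 6 libraries, and higher in the Gpnmb-led than in the H2-Aa-led cluster in 6 of 6.

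**Figure D2:**
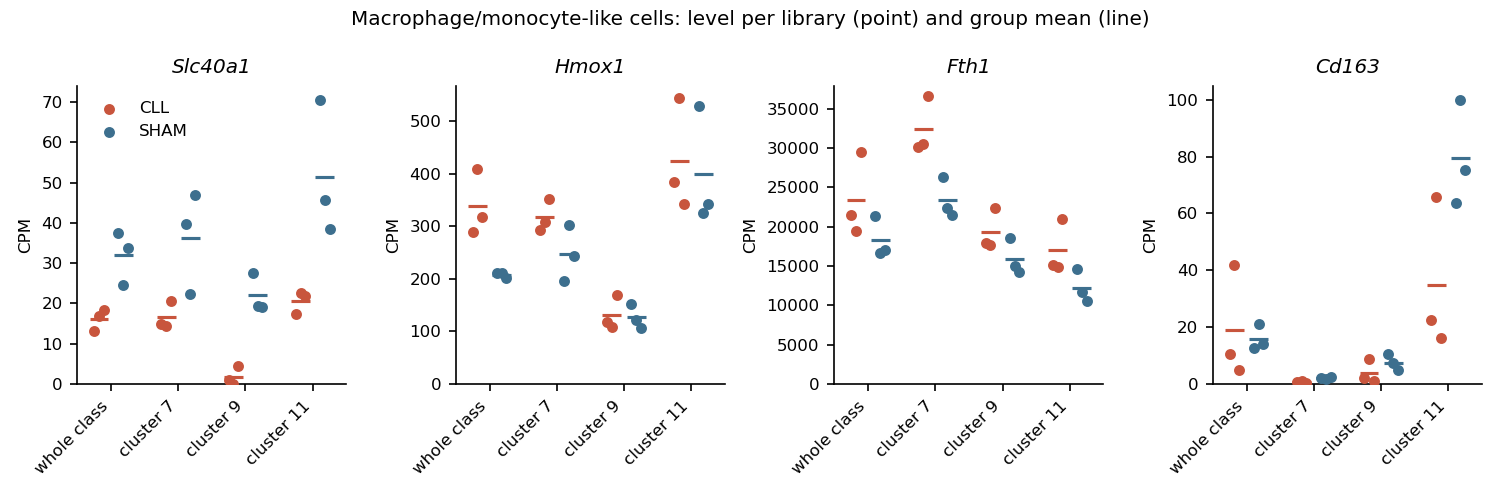
Level (CPM) of Slc40a1, Hmox1, Fth1 and Cd163 in the whole macrophage/monocyte-like class and in clusters 7 (Gpnmb-led), 9 (H2-Aa-led) and 11 (F13a1-led); points are libraries, lines are group means, and CLL stands left of SHAM. Slc40a1 is lower in every CLL library than in any SHAM library in the class and all 3 clusters, while the groups overlap for Hmox1 within each cluster.

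The make-up of the class by cluster differed between the libraries, and is given with no test, since genes that lead the clusters may themselves differ between the groups and depth per cell differed between libraries. Of the macrophage-like cells, the F13a1-led cluster, highest in Hmox1, made up 49.4, 58.1 and 36.4% in CLL, against 12.97, 18.1 and 19.4% in SHAM. The H2-Aa-led cluster, lowest in Hmox1, made up 16.7, 15.9 and 18.3% in CLL, against 52.6, 56.2 and 44.4% in SHAM. For both clusters the CLL and SHAM shares did not overlap. The Gpnmb-led cluster made up 28.9, 21.7 and 42.3% in CLL, against 33.1, 25.2 and 34.03% in SHAM, with overlap, and a small Nusap1-led cluster of dividing cells made up 4.97, 4.27 and 2.99% in CLL, against 1.33, 0.454 and 2.08% in SHAM. When the 3 larger clusters were given equal weight in every library, an alternative chosen after seeing the data, Hmox1 was 264, 320.2 and 287 CPM in CLL, against 292, 249.9 and 231 CPM in SHAM. The groups then overlapped (log2 ratio of means 0.17, exact two-sided permutation p = 0.3). At equal weight Slc40a1 was 11.1, 12.3 and 15.6 CPM in CLL, against 45.9, 29.04 and 34.8 CPM in SHAM, with no overlap (log2 ratio of means -1.49, exact two-sided permutation p = 0.1, the smallest that 3 libraries against 3 allow). Cd163, Fth1 and Slc11a1, whose groups overlapped in the class as sampled, did not overlap at equal weight. Cd163 then was 8.42, 25.2 and 5.72 CPM in CLL, against 25.4, 36.3 and 27.5 CPM in SHAM (log2 ratio of means -1.18), Fth1 was 21090, 21033 and 26670 CPM in CLL, against 19829, 16346 and 15416 CPM in SHAM (0.42) and Slc11a1 was 106, 86.3 and 108 CPM in CLL, against 111, 120.3 and 139 CPM in SHAM (-0.30). Each of these 3 has the same exact p of 0.1, and over the 10 members the adjusted p is 0.25 for each, as for Slc40a1. The share of all genes whose groups did not overlap at equal weight was not computed. In the class as sampled it was 23.5%.

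**Figure D3:**
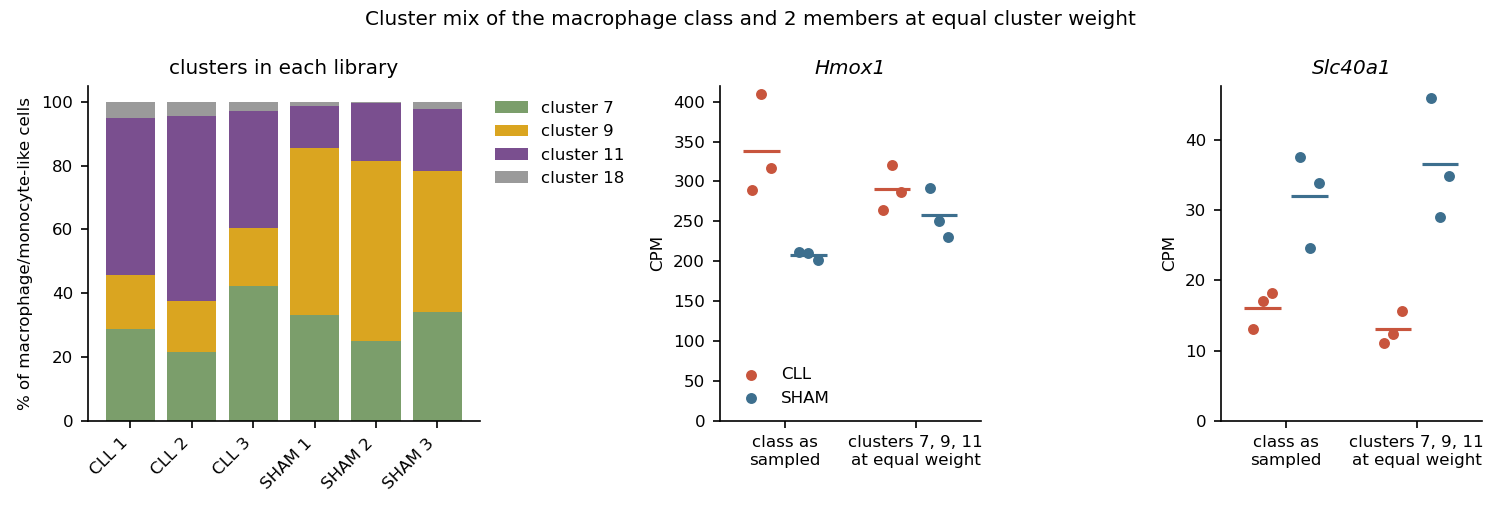
Stacked bars give the percent of macrophage/monocyte-like cells in clusters 7, 9, 11 and 18 (Nusap1-led) for each library, and points give Hmox1 and Slc40a1 (CPM) per library in the class as sampled and with clusters 7, 9 and 11 at equal weight, with lines at group means and CLL left of SHAM. The groups separate for Hmox1 in the whole class and overlap at equal weight, while they separate for Slc40a1 in both.

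Counted by cells, after each cell was thinned to 1000 UMIs, 17.2% ± 1.23 of macrophage-like cells had a Hmox1 UMI in CLL, against 12.8% ± 1.61 in SHAM (SD, n = 3 libraries each). The groups did not overlap (exact two-sided permutation p = 0.1, adjusted p = 0.5 over the members). Without thinning the shares were 53.5% ± 7.93 in CLL and 51.9% ± 21.1 in SHAM, at median depths per library of 4759 to 10106 UMIs per cell in CLL and 2679 to 18690 in SHAM. In the Gpnmb-led cluster the thinned shares were 17.7, 19.4 and 16.00% in CLL, against 12.1, 7.21 and 14.6% in SHAM, without overlap, in the F13a1-led cluster 18.8, 21.3 and 19.8% in CLL, against 24.7, 23.8 and 20.2% in SHAM, and in the H2-Aa-led cluster 14.4, 6.33 and 8.76% in CLL, against 10.9, 8.87 and 11.1% in SHAM, both with overlap. In the whole class thinning left out 59 CLL and 315 SHAM cells with fewer UMIs. Endothelial-like cells, a class of low Hmox1, had a Hmox1 UMI in 1.41% of cells in CLL and 2.85% in SHAM when thinned in the same way, from median depths of 1900 to 3455 UMIs in CLL and 2729.5 to 7032 in SHAM before thinning. For Slc40a1 the thinned shares in the whole macrophage-like class were 0.884, 1.49 and 2.54% in CLL, against 2.90, 0.907 and 2.82% in SHAM. Those groups overlapped (exact two-sided permutation p = 0.5, adjusted p = 0.833 over the members). The Slc40a1 shares also overlapped in each of the 3 larger clusters.

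Ferritin mRNA was abundant in macrophage-like cells, and neither chain passed the test between groups. Fth1, the heavy chain that carries ferroxidase activity, stood at 21445, 19399 and 29454 CPM in the CLL libraries, against 21322, 16676 and 16997 CPM in the SHAM libraries (log2 fold change 0.36 ± 0.22 SE, adjusted p = 0.387). Ftl1, the light chain, stood at 15267, 12857 and 19746 CPM in the CLL libraries, against 13824, 12438 and 15021 CPM in the SHAM libraries (log2 fold change 0.21 ± 0.22 SE, adjusted p = 0.637). CLL 3 was highest for both chains, and the groups overlapped. In the Gpnmb-led cluster, where both chains were highest, the groups did not overlap for Fth1, which had 30203 to 36605 CPM in CLL, against 21523 to 26301 CPM in SHAM, but the test was not passed (log2 fold change 0.48 ± 0.15 SE, adjusted p = 0.0907). It was passed without SHAM 1 (adjusted p = 0.00475) and with DESeq2 (0.0216). In the F13a1-led cluster Fth1 had 14842 to 21031 CPM in CLL, against 10515 to 14598 CPM in SHAM, also without overlap (log2 fold change 0.53 ± 0.18 SE, adjusted p = 0.109). There it passed without CLL 2 (adjusted p = 0.04) and with no low-count filter (0.0101), while Ftl1 had 10364 to 12989 CPM in CLL, against 10479 to 10729 CPM in SHAM. The ratio of Fth1 to Ftl1 UMIs in the F13a1-led cluster was 1.46, 1.43 and 1.62 in CLL, against 1.38, 1.09 and 1.004 in SHAM (exact two-sided permutation p = 0.1, adjusted p = 0.55 over 11 units). In the whole class the ratio was 1.405, 1.51 and 1.49 in CLL, against 1.54, 1.34 and 1.13 in SHAM (exact two-sided permutation p = 0.4, adjusted p = 0.55 over 11 units). Both ferritin genes have near-identical copies in the genome, of which Ftl1-ps1 drew 9413 UMIs over all kept cells, so the ferritin values are uncertain by whatever the counting assigned to such copies.

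Slc11a1, the phagosomal metal transporter, stood in macrophage-like cells at 113, 80.9 and 121 CPM in the CLL libraries, against 121, 127 and 147 CPM in the SHAM libraries, and the groups overlapped (log2 fold change -0.32 ± 0.19 SE, adjusted p = 0.388). In the H2-Aa-led cluster it was lower in CLL without overlap, with 66.6, 72.6 and 78.3 CPM in the CLL libraries, against 112, 131 and 146 CPM in the SHAM libraries (log2 fold change -0.81 ± 0.19 SE, adjusted p = 0.044). That call was lost in 6 of 11 alternatives, with an adjusted p of 0.284 without CLL 1, 0.0899 without CLL 2, 0.166 without CLL 3, 0.129 without SHAM 2, 0.166 without SHAM 3 and 0.28 without both CLL 2 and SHAM 3. In the Gpnmb-led cluster Slc11a1 had 120.0 to 156 CPM in CLL, against 144 to 168 CPM in SHAM, and in the F13a1-led cluster 66.2 to 96.2 CPM in CLL, against 78.2 to 102 CPM in SHAM, with overlap in both. Tfrc, the transferrin receptor, stood at 14.4, 21.01 and 8.58 CPM in the CLL libraries, against 9.33, 8.88 and 10.4 CPM in the SHAM libraries (log2 fold change 0.56 ± 0.26 SE, adjusted p = 0.249), where CLL 3 lay below all SHAM libraries while CLL 1 and CLL 2 lay above them. Tfrc was not called in any of the 3 larger clusters.

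Cd163, the haptoglobin-haemoglobin receptor, was concentrated in the F13a1-led cluster, where its 6-library mean was 57.2 CPM, against 5.68 CPM in the H2-Aa-led and 1.37 CPM in the Gpnmb-led cluster. In the F13a1-led cluster it stood at 22.5, 65.7 and 16.03 CPM in the CLL libraries, against 63.7, 99.9 and 75.2 CPM in the SHAM libraries. CLL 1 and CLL 3 lay below all SHAM libraries, and CLL 2 lay just above SHAM 1 (log2 fold change -1.21 ± 0.57 SE, adjusted p = 0.334). Without CLL 2 the fold change was -1.91 with an adjusted p of 0.00115, and without CLL 2 and SHAM 3 it was -1.96 with 0.0161. DESeq2 gave an adjusted p of 0.041, and a block on replicate number gave 0.0141. In the whole class, in which the F13a1-led share was larger in CLL, Cd163 stood at 10.5, 42.03 and 4.89 CPM in the CLL libraries, against 12.7, 21.2 and 13.97 CPM in the SHAM libraries, and the groups overlapped (log2 fold change 0.087 ± 0.77 SE, adjusted p = 0.966). Without CLL 2 that fold change turned negative (-1.005, adjusted p = 0.266). The 10 markers of resident-type macrophages, all detected, summed in the F13a1-led cluster to 4489.8, 7376 and 3799 CPM in CLL, against 6942, 8667 and 8069 CPM in SHAM. Their part in the Cd163 values was not tested.

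Hp, the haemoglobin-binding plasma protein, was low in macrophage-like cells, at 6.105, 14.4 and 6.08 CPM in the CLL libraries, against 1.35, 11.3 and 1.300 CPM in the SHAM libraries (log2 fold change 0.96 ± 1.03 SE, adjusted p = 0.675). SHAM 2 lay above CLL 1 and CLL 3, and Hp passed without SHAM 2 (log2 fold change 2.70, adjusted p = 0.00326) and at a Leiden resolution of 2 (0.0169). In the Gpnmb-led cluster it was higher in CLL, with 9.33, 16.5 and 3.67 CPM in the CLL libraries, against 0.648, 1.09 and 0.485 CPM in the SHAM libraries (log2 fold change 3.61 ± 0.61 SE, adjusted p = 0.006), from 25, 15 and 16 UMIs in CLL, against 5, 2 and 2 in SHAM. This call held in 10 of 11 alternatives and was lost without CLL 2 and SHAM 3 (adjusted p = 0.095). In the F13a1-led cluster Hp was also higher in every CLL library, at 4.15, 14.7 and 6.58 CPM, against 0.965, 1.94 and 0.737 CPM in SHAM. These values rest on 12, 28 and 16 UMIs in CLL, against 2, 2 and 1 in SHAM. Hp did not pass the count filter of the main fit there, and 23.1% of genes tested in that cluster had groups that did not overlap. Of all Hp UMIs in a library's kept cells, adipocyte-like cells held 76.6, 92.1 and 86.2% in CLL, against 49.5, 2.29 and 40.2% in SHAM. Adipocyte markers in the Gpnmb-led cluster, with 7 of 9 detected and Plin1 and Lep at 0, summed to 289, 514 and 424 CPM in CLL, against 397, 313 and 234 CPM in SHAM, and their part in the Hp values was not tested. Hpx, the haem-binding plasma protein, had, in macrophage-like cells, 0, 1 and 0 UMIs in CLL, against 1, 1 and 1 in SHAM, which is too few for a test. Steap4, the metalloreductase, stood at 1.53, 4.03 and 1.43 CPM in the CLL libraries, against 7.07, 4.602 and 2.71 CPM in the SHAM libraries, with overlap (log2 fold change -1.22 ± 0.44 SE, adjusted p = 0.138). It passed without CLL 2 and SHAM 3 (adjusted p = 0.0449) and with no low-count filter (0.0177). In the H2-Aa-led cluster Hp, at 7.07 to 14.2 CPM in CLL, against 1.497 to 20.5 CPM in SHAM, passed without SHAM 2 (0.0424).

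In fibroblast/tenocyte-like cells Hmox1 was higher in CLL as well. It stood at 49.96, 47.6 and 42.2 CPM in the CLL libraries, against 31.8, 36.01 and 21.1 CPM in the SHAM libraries, without overlap (log2 fold change 0.71 ± 0.18 SE, adjusted p = 0.0178). It was the only call among the 7 members tested there, where 12.0% of 12432 genes were called and 31.6% had groups that did not overlap. The 16 macrophage and monocyte markers, all detected, summed in these cells to 341 to 887 CPM in CLL, against 729 to 1954 CPM in SHAM, and their part in the result was not tested. In the Ddah1-led cluster, an unnamed cluster with a high fibroblast marker sum that is described with Steap4, Hmox1 stood at 41.5, 44.6 and 43.3 CPM in the CLL libraries, against 27.4, 48.2 and 78.5 CPM in the SHAM libraries, with overlap (log2 fold change -0.11 ± 0.34 SE, adjusted p = 0.919). The call was lost without CLL 1 (adjusted p = 0.0715), CLL 2 (0.0604), SHAM 1 (0.0557) or both CLL 2 and SHAM 3 (0.0686), and over 15 alternatives it ran from 2.05e-05 to 0.0715. Hp stood at 72.8, 176 and 82.5 CPM in the CLL libraries, against 4.13, 4.57 and 24.1 CPM in the SHAM libraries, with every CLL library above every SHAM library, but missed the threshold (log2 fold change 3.50 ± 0.88 SE, adjusted p = 0.0863). It passed with DESeq2 (adjusted p = 0.00252), without SHAM 3 (0.0321) and without both CLL 2 and SHAM 3 (4.48e-09). The 9 adipocyte markers, of which Lep was at 0, summed in the same cells to 12.4, 76.3 and 26.4 CPM in CLL, against 209.8, 22.7 and 34.5 CPM in SHAM. Slc40a1, with 19.7 to 28.7 CPM in CLL, against 23.1 to 39.6 CPM in SHAM, and Steap4, with 51.3 to 62.8 CPM in CLL, against 55.2 to 87.02 CPM in SHAM, overlapped between the groups. Steap4 passed as lower in CLL at a Leiden resolution of 2 (log2 fold change -0.58, adjusted p = 0.0385).

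In myogenic-like cells, named from markers of muscle stem cells and their progeny, Slc40a1 was lower in CLL, as in the macrophage-like class. It stood at 20.01, 10.3 and 24.6 CPM in the CLL libraries, against 46.4, 34.2 and 57.2 CPM in the SHAM libraries, without overlap (log2 fold change -1.13 ± 0.27 SE, adjusted p = 0.0308). It was the only call among the 8 members tested, where 10.9% of 10916 genes were called and 31.8% had groups that did not overlap. The 16 macrophage and monocyte markers, all detected, were also lower in CLL, with sums of 696, 1679 and 2308 CPM in CLL, against 12708, 2788 and 16128 CPM in SHAM, and their part in the result was not tested. The class included a cluster led by Chodl and Pax7, for which the macrophage and monocyte list was the next strongest after the myogenic list. That cluster held 6, 12 and 21 cells in CLL, against 438, 2 and 26 in SHAM, and its part was not tested. The call was lost without CLL 1 (adjusted p = 0.121), CLL 3 (0.0659), SHAM 1 (0.0773), SHAM 3 (0.0891) or both CLL 2 and SHAM 3 (0.0883), and over 15 alternatives it ran from 6.14e-07 to 0.121. Hmox1 in these cells stood at 24.9, 20.05 and 39.7 CPM in the CLL libraries, against 67.5, 17.1 and 106 CPM in the SHAM libraries (log2 fold change -1.02 ± 0.68 SE, adjusted p = 0.4), and the groups overlapped. Without SHAM 2 it passed (log2 fold change -1.33, adjusted p = 0.022), as did Ftl1 (-0.94, 0.0253) and Cd163 (-1.58, 0.0231), each lower in CLL. Steap4 passed with at least 1000 UMIs (-1.73, 0.0329), with at least 500 genes per cell (0.0277) and with no low-count filter (0.00549). Cd163 also passed with no low-count filter (0.0465), and Slc11a1, at 0.851, 0 and 5.41 CPM in the CLL libraries, against 18.6, 3.42 and 31.4 CPM in the SHAM libraries, passed with replicate number as a block (-3.05, 0.0023).

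Steap4 in endothelial-like cells had the largest fold change, in size, among the members called in a named class. It stood at 5.22, 7.24 and 0 CPM in the CLL libraries, against 51.4, 55.1 and 69.2 CPM in the SHAM libraries (log2 fold change -3.56 ± 0.53 SE, adjusted p = 0.00311), from 1, 3 and 0 UMIs in CLL, against 437, 132 and 186 in SHAM. Every CLL library lay far below every SHAM library, and the class held 294 CLL cells, against 3007 SHAM cells. It was the only call among the 7 members tested, where 0.549% of 9283 genes were called and 18.1% had groups that did not overlap. The 12 mural cell markers, all detected, were lower in CLL too, with sums of 345, 330.4 and 718 CPM in CLL, against 1798, 1344 and 1819.9 CPM in SHAM. When the cells were clustered more finely, at a Leiden resolution of 2, endothelial-like cells had Steap4 at 4.01, 9.93 and 0 CPM in CLL, against 12.6, 10.1 and 2.67 CPM in SHAM, and the call was gone (log2 fold change -0.53 ± 0.83 SE, adjusted p = 0.859). CLL 2 then lay above SHAM 3. The mural sum at that resolution was 522, 889 and 940.1 CPM in CLL, against 746, 481 and 387 CPM in SHAM. At that resolution a separate cluster of 298 cells, led by Rgs5, Abcc9 and Kcnj8 and carrying both mural and endothelial markers, held 270, 11 and 17 cells of the SHAM libraries and 0 of the CLL libraries. At the first resolution, same-numbered libraries of this class deviated together (r = 0.126, 0.266 and 0.159 for numbers 1, 2 and 3), and with replicate number as a block 118 genes were called in place of 51, Steap4 among them (log2 fold change -3.60 ± 0.53 SE, adjusted p = 0.000977). Mural-like cells, pericytes and smooth muscle, had Steap4 at 335, 135 and 149 CPM in the CLL libraries, against 383, 566 and 389 CPM in the SHAM libraries. They were not tested, with only 20, 52 and 13 CLL cells, against 859, 100 and 42 SHAM cells.

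An unnamed cluster led by Ddah1, Csrp2 and Timp1 (cluster 4 in the plot), with a high fibroblast marker sum (44438 to 46504 CPM in CLL, against 43587 to 53524 CPM in SHAM over 12 markers, all detected), had more Steap4 in CLL. There Steap4 stood at 27.6, 28.3 and 26.3 CPM in the CLL libraries, against 13.4, 14.6 and 4.95 CPM in the SHAM libraries, without overlap (log2 fold change 1.37 ± 0.24 SE, adjusted p = 0.00192). The cluster was tested on its own as an alternative chosen after seeing the data, and held 959, 1314 and 1562 cells of the CLL libraries, against 506, 22 and 32 cells of the SHAM libraries. Steap4 was the only call among the 7 members tested, where 3.45% of 12874 genes were called and 21.7% had groups that did not overlap. The Steap4 call held in all 11 alternatives with adjusted p up to 0.0173. The 12 mural markers summed in this cluster to 1372, 1800.2 and 1548 CPM in CLL, against 1380.2, 899 and 1303 CPM in SHAM. Hp there stood at 30.7, 135 and 39.7 CPM in the CLL libraries, against 2.29, 5.84 and 1.41 CPM in the SHAM libraries, without overlap, but did not pass the test (log2 fold change 4.81 ± 1.31 SE, adjusted p = 0.193). It passed without CLL 2 (log2 fold change 3.89, adjusted p = 6.54e-05), without both CLL 2 and SHAM 3 (7.72e-11), with a block on replicate number (9.61e-07) and with DESeq2 (4.74e-05). Adipocyte markers summed in this cluster to 44.7, 155 and 32.8 CPM in CLL, against 112, 18.99 and 14.8 CPM in SHAM, and their part in the Hp values was not tested.

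**Figure D4:**
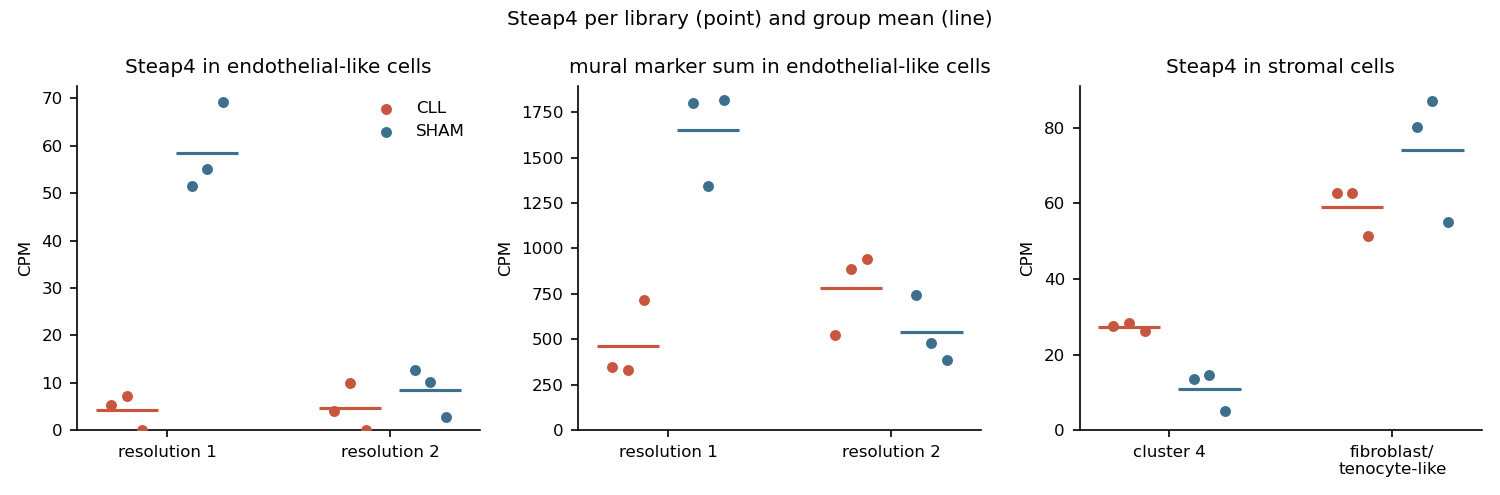
Steap4 (CPM) in endothelial-like cells clustered at resolution 1 and 2, the sum of the 12 mural markers (CPM) in the same cells, and Steap4 (CPM) in cluster 4 and in fibroblast/tenocyte-like cells; points are libraries, lines are group means, and CLL stands left of SHAM. Steap4 in endothelial-like cells is lower in every CLL library at resolution 1 and overlaps at resolution 2, while in cluster 4 every CLL library is higher.

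In dendritic-like cells Slc11a1 was lower in CLL, at 2.78, 0 and 2.65 CPM in the CLL libraries, against 14.3, 8.47 and 19.4 CPM in the SHAM libraries (log2 fold change -2.23 ± 0.54 SE, adjusted p = 0.035), from 4, 0 and 6 UMIs in CLL, against 28, 8 and 11 in SHAM. It was the only call among the 4 members tested there, where 2.52% of 7264 genes were called, and the call was lost in 6 of 12 alternatives: without CLL 1 (0.254), CLL 2 (0.0553), CLL 3 (0.37), SHAM 3 (0.11), or CLL 2 and SHAM 3 together (0.082), and with replicate number as a block (0.0502). Without SHAM 1, with at most 10% mitochondrial UMIs and with DESeq2, Slc11a1 had no adjusted p. Macrophage and monocyte markers, 16 of 16 detected, summed in these cells to 916, 2597 and 1459 CPM in CLL, against 7324, 1550.0 and 6948 CPM in SHAM, and their part in the result was not tested. In myofibre-like cells edgeR called 0 of the 6 members tested and 0.00% of 7504 genes, while 688 genes had an unadjusted p under 0.05 and DESeq2 called 49. Hmox1, the member with the smallest unadjusted p there (0.071), had 19.1 to 39.02 CPM in CLL, against 4.22 to 24.8 CPM in SHAM, and Tfrc had 8.03 to 22.2 CPM in CLL, against 8.44 to 30.99 CPM in SHAM.

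Over all kept cells, 7 of the 10 members were called, where 36.2% of 16687 genes were. In such sums fewer cells of a type and less RNA per cell cannot be told apart. The 16 macrophage and monocyte markers summed to 5456, 4640.3 and 6547 CPM in CLL, against 23957, 21014 and 25871 CPM in SHAM. Slc11a1 was lower in CLL, at 14.5, 7.08 and 16.8 CPM in the CLL libraries, against 45.4, 41.4 and 55.2 CPM in the SHAM libraries (log2 fold change -1.82 ± 0.34 SE, adjusted p = 0.00902). Cd163, Slc40a1, Ftl1 and Fth1 were lower too, with log2 fold changes of -1.40, -0.66, -0.64 and -0.61. Hmox1 had 70.6 to 75.5 CPM in CLL, against 80.7 to 95.3 CPM in SHAM (log2 fold change -0.23 ± 0.10 SE, adjusted p = 0.111). Of a library's Slc40a1 UMIs the macrophage-like class held 8.72, 8.64 and 12.7% in CLL, against 31.7, 30.6 and 35.6% in SHAM. Of its Hmox1 UMIs it held 49.3, 36.1 and 53.7% in CLL, against 59.5, 69.6 and 64.01% in SHAM. For both genes the share held by macrophage-like cells was lower in every CLL library than in any SHAM library. The same was so for the UMIs of all genes. The class held about 7207700, 3474000 and 8389900 UMIs in CLL, from 59927000, 52238000 and 66241000 in all kept cells. In SHAM the class held about 18540000, 6084200 and 9233700, from 69215000, 22778000 and 30996000. Whether the shares of the members went beyond this was not tested. Hp was higher in CLL, at 129.6, 1488 and 271 CPM in the CLL libraries, against 8.24, 5.75 and 10.2 CPM in the SHAM libraries (log2 fold change 6.33 ± 1.24 SE, adjusted p = 0.0174). Hpx was higher too, with 35, 94 and 44 UMIs in CLL, against 18, 3 and 4 in SHAM (log2 fold change 2.47 ± 0.54 SE, adjusted p = 0.00789). Slc11a1 and Hpx kept their call in 11 of 11 alternatives. Hp lost it without SHAM 1 (adjusted p = 0.0666), SHAM 2 (0.0777) or SHAM 3 (0.0544) and with replicate number as a block (0.0772). Slc40a1 lost it without SHAM 1 (0.0605), SHAM 3 (0.0628) or both CLL 2 and SHAM 3 (0.0546). Cd163 lost it without CLL 1 (0.0944), SHAM 1 (0.0764), SHAM 2 (0.0859) or SHAM 3 (0.0743) and with no low-count filter (0.0536). Ftl1 and Fth1 lost it without CLL 1, CLL 2, SHAM 1, SHAM 3 or both CLL 2 and SHAM 3, and Fth1 also with replicate number as a block (0.0599), so that Ftl1 held in 6 and Fth1 in 5 of 11, with adjusted p up to 0.25 and 0.174. Steap4, which was not called (log2 fold change -0.47 ± 0.25 SE, adjusted p = 0.179), passed without CLL 2 (0.0436), without both CLL 2 and SHAM 3 (0.00694) and with replicate number as a block (0.00881).

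Whether a member moved differently in macrophage-like than in fibroblast/tenocyte-like cells was tested with an interaction term. With edgeR 0 of the 9 members tested passed, 2 had an unadjusted p under 0.05, and 1.30% of 13825 genes passed. The smallest adjusted p was for Slc40a1, whose fold change was the more negative in macrophage-like cells (difference of log2 fold changes -0.80 ± 0.24 SE, adjusted p = 0.161). For Hmox1 the difference was -0.034 ± 0.20 SE (adjusted p = 0.965). Without SHAM 2, Slc11a1 passed (difference 2.25, adjusted p = 0.03).

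Beyond the members, 83 other genes of iron and haem handling were looked at in 7 lists. In macrophage-like cells 66 of them could be tested, of which 4 were higher and 1 lower in CLL, where 4.96% of all genes tested were called, with a median log2 fold change of 0.058 against -0.0054 over all genes tested. The gene lower in CLL was Trf, transferrin, the plasma carrier of ferric iron, at 225, 262 and 278 CPM in the CLL libraries, against 433, 528 and 462 CPM in the SHAM libraries (log2 fold change -0.92 ± 0.17 SE, adjusted p = 0.0142). Trf was also called lower in each of the 3 larger clusters, with log2 fold changes of -0.83 in the F13a1-led, -1.07 in the H2-Aa-led and -1.01 in the Gpnmb-led cluster. Of the 4 that were higher, 3 belong to the 11 genes of oxidant defence known as targets of the transcription factor Nrf2, as is Hmox1 itself. Txnrd1, thioredoxin reductase, stood at 233, 223 and 244 CPM in the CLL libraries, against 162, 158 and 117 CPM in the SHAM libraries (log2 fold change 0.67 ± 0.16 SE, adjusted p = 0.0422). Srxn1, sulfiredoxin, stood at 52.2, 52.4 and 48.2 CPM in the CLL libraries, against 32.04, 36.7 and 29.8 CPM in the SHAM libraries (log2 fold change 0.62 ± 0.15 SE, adjusted p = 0.0412). Gclm, a subunit of the enzyme that makes the glutathione precursor, stood at 40.2, 55.8 and 48.99 CPM in the CLL libraries, against 35.98, 24.3 and 31.4 CPM in the SHAM libraries (log2 fold change 0.64 ± 0.14 SE, adjusted p = 0.0273). For each of the 3 the groups did not overlap. The list had a median log2 fold change of 0.38 over its 10 tested genes, of which the other 7 did not pass. The last was Hspa9, a mitochondrial chaperone of iron-sulfur cluster transfer, at 90.04, 80.02 and 84.1 CPM in the CLL libraries, against 64.99, 54.1 and 59.3 CPM in the SHAM libraries (log2 fold change 0.51 ± 0.13 SE, adjusted p = 0.0462). In the lists of haem synthesis, haem transport and breakdown, storage, and iron regulators, 0 genes passed in this class.

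Within the clusters, Txnrd1 was called higher in CLL in the Gpnmb-led (0.77) and F13a1-led (0.86) cluster. Ncoa4, the receptor that brings ferritin to the lysosome for release of its iron, was lower in the F13a1-led cluster, at 83.4, 82.5 and 74.4 CPM in the CLL libraries, against 127, 145 and 145 CPM in the SHAM libraries (log2 fold change -0.75 ± 0.16 SE, adjusted p = 0.0101). Bola3, an iron-sulfur cluster factor of mitochondria, was higher there (log2 fold change 0.82). In the Gpnmb-led cluster Nfe2l2, which encodes Nrf2, was lower (-0.63) and Glrx5, another iron-sulfur cluster factor, was higher (0.51). In the H2-Aa-led cluster Trf was the 1 listed gene that passed.

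The promoters of the oxidant defence list were searched for TGACNNNGC, the core letters of the antioxidant response element, on both strands, in RefSeq windows of 300 bases (GRCm38.p6). The letters stood in 12.4% of all windows (4071 of 32851). Of the 11 genes of the list 9 had windows, 14 in all, and 5 windows of 5 genes held the letters: those of Gclm, Srxn1 and Txnrd1 (1 of its 3 windows), which were called, and those of Prdx1 and G6pdx, 2 of the 6 genes with windows that were not called. With so few genes, chosen as known targets of Nrf2, these counts are a description and nothing is read from them. The stretches of the 3 called genes are shown because they place the match relative to the gene start, with the 9 matching letters in capitals on the strand of the gene.
Gclm, chr3:122245413-122245442, plus strand, starting 134 bases upstream of the start: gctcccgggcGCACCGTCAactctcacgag
Srxn1, chr2:152105542-152105571, plus strand, starting at base 29 from the start: gcagtgggcaGCTAGGTCAgagtgagacac
Txnrd1, chr10:82859104-82859133, plus strand, starting 92 bases upstream of the start: ctggatttttGCTTTGTCAttctgacacgg

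Of the 7 members matched in the RefSeq table, Hpx held the letters, 95 bases upstream of its start, and Hmox1, Slc40a1 and Hp were not matched. A match of letters is a description and not a binding site.

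In fibroblast/tenocyte-like cells 11 of 73 tested list genes were higher and 3 lower in CLL, where 12.0% of all genes tested were called, with a median of 0.091 against -0.023 over all genes tested. The numbers in parentheses that follow are log2 fold changes of called genes. Higher were the iron importer Slc39a14 (0.68), the reductase Steap1 (1.05), Tfr2 (0.93), Bmp6, the signal that raises hepcidin in liver (0.996), and Hif1a (0.76). Of 14 genes of mitochondrial iron and iron-sulfur clusters, 4 were higher, Cisd1 (0.72), Glrx5 (0.58), Hspa9 (0.48) and Bola3 (0.44). Txnrd1 (0.56) and the haem synthesis gene Tmem14c (0.46) were higher as well. Lower were Steap3 (-0.61), the ferroxidase ceruloplasmin, Cp (-0.54), which works with ferroportin, and Mcoln1 (-0.77).

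In myogenic-like cells 6 of 72 tested list genes were higher and 11 lower in CLL, where 10.9% of all genes tested were called, with a median of -0.31 against -0.060 over all genes. The 4 higher genes of mitochondrial iron were Glrx5 (0.74), Cisd1 (0.69), Bola3 (0.63) and Nfu1 (0.58), and Gclc (0.78) and Gpx4 (0.50) were higher in the oxidant defence list. Lower were the ferritin receptor Scara5 (-3.06), Cp (-0.95), the haem transporter family member Flvcr2 (-3.15), Lrp1 (-0.68), which takes up the haemopexin complex, Srxn1 (-0.83) and Slc7a11 (-1.64). Of 12 tested iron regulators 5 were lower, among them Bmp6 (-2.91), Bach1 (-0.72), the repressor of Hmox1, Fbxl5 (-0.69) and Nfe2l2 (-0.66). The macrophage marker sum of these cells was lower in CLL as well, and its part in these values was not tested. Bach1 was also lower in dendritic-like cells (-1.05), Hspa9 was higher in the Ddah1-led cluster (0.58), and edgeR called 0 list genes in endothelial-like or myofibre-like cells. Over all kept cells 17 of 78 tested list genes were higher and 17 lower in CLL, where 36.2% of all genes tested were called.

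**Figure D5:**
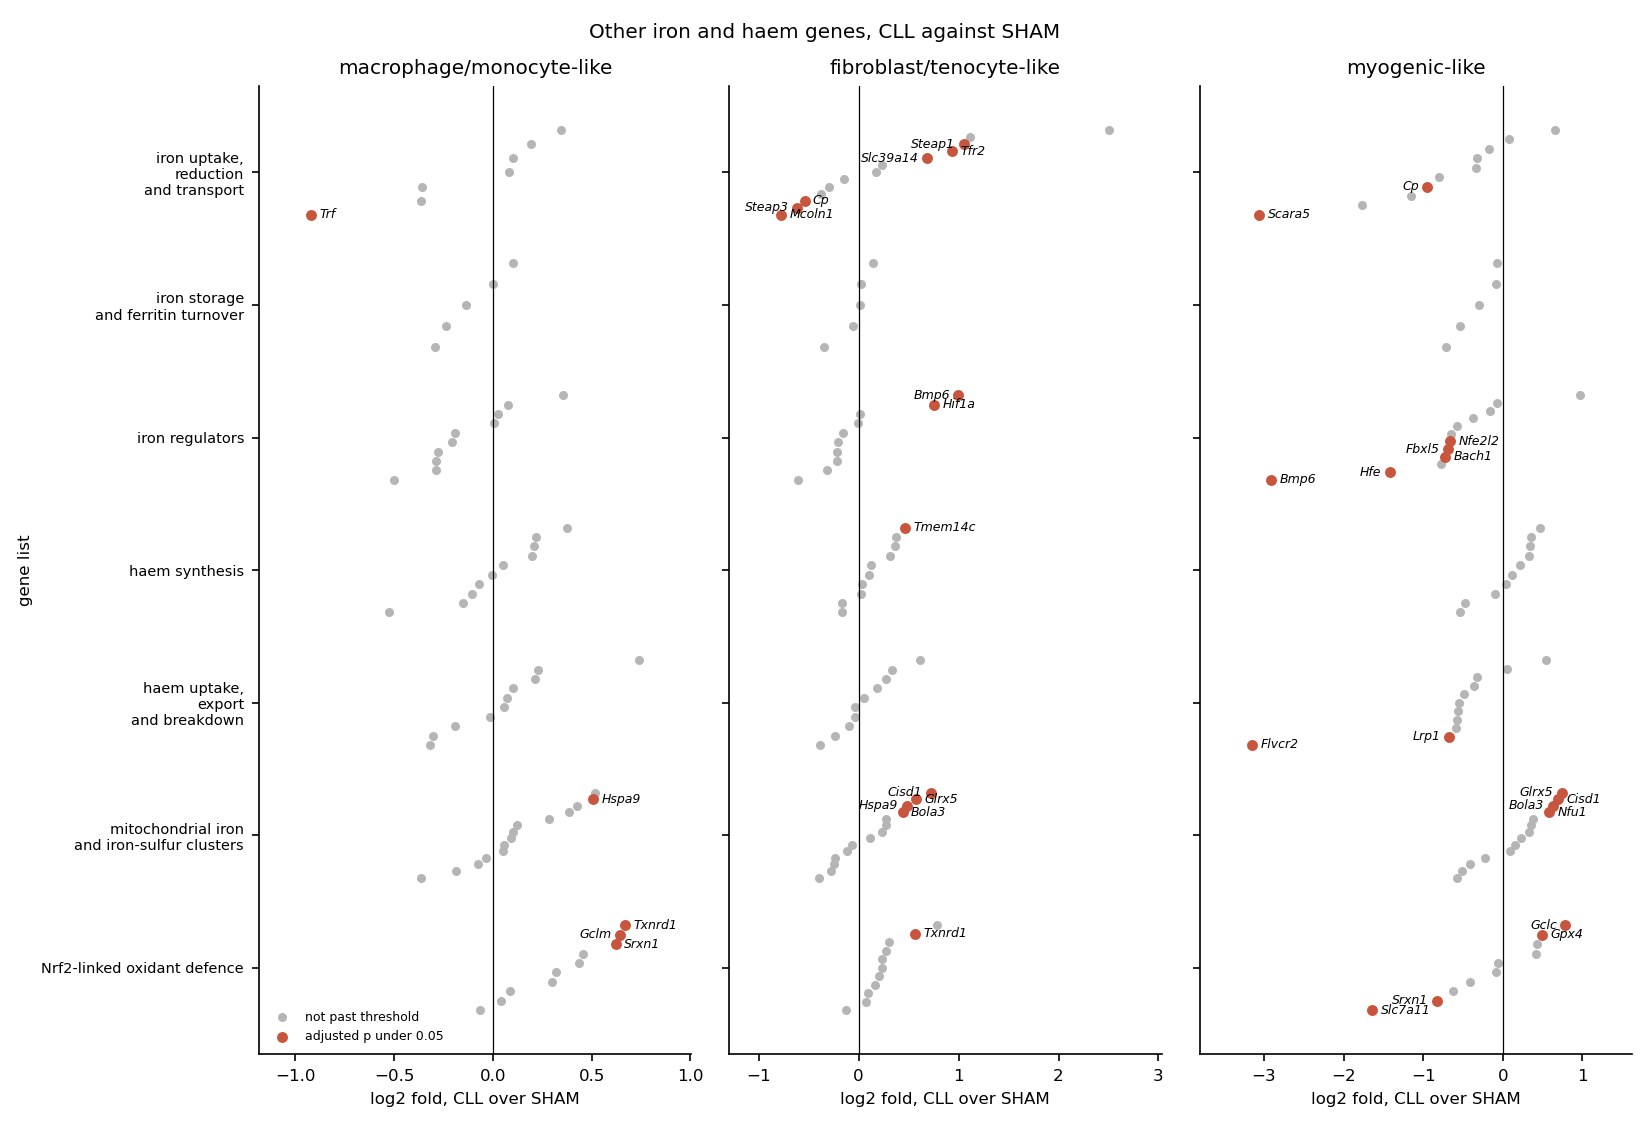
Log2 fold change, CLL over SHAM, of each tested gene of the 7 iron and haem lists in macrophage/monocyte-like, fibroblast/tenocyte-like and myogenic-like cells, with genes grouped by list; red points with names are called by edgeR at an adjusted p under 0.05, and grey points are not. Called genes lie on both sides of 0 in all 3 classes, with 4 higher and 1 lower in macrophage/monocyte-like, 11 higher and 3 lower in fibroblast/tenocyte-like and 6 higher and 11 lower in myogenic-like cells.

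Likeness of pattern was described by Pearson's r of log2(CPM + 1) over 56 class-by-library sums of the 6 libraries, among 5723 genes, without a test since the sums share libraries. The 5 genes most like Hmox1 were Ctsd (0.777), Ctsb (0.743), Lamp1 (0.723), Grn (0.723) and Ccl2 (0.705). For Slc40a1 they were Timp2 (0.730), Pdpn (0.723), Myof (0.691), Creb5 (0.685) and Ttyh2 (0.665). For Cd163 they were Lgmn (0.735), Atp6v1a (0.732), Folr2 (0.710), Cd68 (0.700) and Pf4 (0.683), and for Tfrc Cd82 (0.689), Sec11c (0.666), Rb1 (0.652), Akirin1 (0.637) and Sun2 (0.632).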

How the data were processed

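The 6 libraries, 1 per mouse, came from dissociated muscle with the 10x 3′ kit, per the labels' protocols. The deposited values were raw UMI counts per gene and barcode, which per the file headers came from Cell Ranger 6.1.2, with mm10 as build per the submitters' processing notes; no source used here says how barcodes were selected. Barcodes needed at least 300 genes and no more than 15% of UMIs from mitochondrial genes, and Scrublet's highest-scoring barcodes, 0.8% per 1000 barcodes, were removed as doublets, 7032 in all. Kept cells were clustered with scanpy 1.11.5 (2000 variable genes, with 94 iron and haem genes left out, 30 principal components, 15 neighbours, Leiden resolution 1), and clusters were named from marker lists. Doublets that remained and free RNA were not corrected for. Counts were summed per library and class, with at least 20 cells in every library, and tested with edgeR 4.0.16 in R 4.3.3 (TMM, filterByExpr, quasi-likelihood), with Benjamini-Hochberg adjustment over all genes tested in a class. The edgeR procedure was tried on simulated counts of macrophage-like and endothelial-like cells, with the same spread for every gene. Changes were placed only in genes expected to have at least 10 UMIs in every library. The trial therefore does not cover calls that rest on a few UMIs. Shares and ratios were compared with exact two-sided permutation tests over libraries, which with 3 against 3 cannot give p under 0.1. Intervals and p-values rest on 6 mice. Alternatives were RLE size factors, DESeq2 1.42.0, no count filter, a replicate block, each library left out, at least 1000 UMIs, at least 500 genes or at most 10% mitochondrial UMIs per cell, and Leiden resolution 2. Chosen after seeing the data were leaving out CLL 2 and SHAM 3 together, the Ddah1-led cluster as a unit, and equal weight of the 3 larger macrophage-like clusters. Named genes are the 10 members in every class tested, all listed iron genes called in macrophage-like cells, at most 4 per list and direction elsewhere, and the 5 genes most like Hmox1, Slc40a1, Cd163 and Tfrc among those averaging at least 20 CPM. Of the lists, 1 gene is not reported here. The members and lists were chosen with earlier results of these data known.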

Additional observations from a re-analysis of the deposited data

Results flagged for a closer look

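Members were compared between the classes and clusters tested, all kept cells aside, where the CLL or SHAM mean was at least 10 CPM. In 3 such cases every CLL library lay on one side of every SHAM library for a member in one group of cells. In another group, which shared no cells with the first, every CLL library lay on the opposite side. The values are log2 ratios of group mean CPM, each with 1 CPM added, and the differences between the groups of cells were not tested. Ftl1 was higher in CLL in the Gpnmb-led macrophage-like cluster, by 0.27, and lower in CLL in endothelial-like cells, by a log2 ratio of -0.36. It was not called in either. Steap4 was higher in CLL in the Ddah1-led cluster, by 1.24, and lower in CLL in dendritic-like cells, with a log2 ratio of -2.64. In dendritic-like cells Steap4 had too few UMIs to pass the count filter and was not tested in the main fit. Against the same 1.24 in the Ddah1-led cluster, Steap4 in endothelial-like cells had a log2 ratio of -3.53, and at a Leiden resolution of 2 the CLL and SHAM values of endothelial-like cells overlapped. Across the cells tested, between 14.4% (myofibre-like) and 50.5% (all kept cells) of genes had CLL and SHAM libraries that did not overlap.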

How the results depend on the processing

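Of the comparisons of a member fold change under an alternative, 881 kept their direction and their side of the threshold, 32 became called, 62 lost their call and 51 changed sign, of which 0 were called with or without the alternative. These counts include equal weight of the 3 macrophage-like clusters, read by an exact permutation test that cannot give p under 0.1. No member could be called there, so Hmox1 and Slc40a1 count as lost there whatever their values. Log2 fold changes that changed sign were, without both CLL 2 and SHAM 3, Hmox1 in dendritic-like cells (-1.28), Hmox1 in endothelial-like cells (-0.083), Tfrc in endothelial-like cells (0.20), Fth1 in fibroblast/tenocyte-like cells (-0.091), Cd163 in macrophage/monocyte-like cells (-1.11), Slc11a1 in the Gpnmb-led cluster (0.13), Ftl1 in the H2-Aa-led cluster (0.19), Hmox1 in the F13a1-led cluster (-0.14), Hmox1 in the Ddah1-led cluster (0.46), Tfrc in the Ddah1-led cluster (-0.025) and Tfrc in all kept cells (-0.017). With replicate number as a block it was Cd163 in macrophage/monocyte-like cells (-0.20) and at equal weight of the 3 macrophage-like clusters Cd163 in macrophage/monocyte-like cells (-1.18). With at least 1000 UMIs or at least 500 genes per cell it was Hmox1 in dendritic-like cells (-0.21, -0.19), with no count filter it was Fth1 in endothelial-like cells (-0.061) and at a Leiden resolution of 2 they were Tfrc in endothelial-like cells (0.070) and Fth1 in fibroblast/tenocyte-like cells (-0.041). With 1 library left out at a time, the log2 fold changes that changed sign under any alternative ranged as follows: Hmox1 in dendritic-like cells (-1.05 to 1.17), Hmox1 in endothelial-like cells (-0.072 to 0.24), Fth1 in endothelial-like cells (-0.13 to 0.14), Slc40a1 in endothelial-like cells (-0.090 to 1.01), Tfrc in endothelial-like cells (-0.62 to 0.32), Fth1 in fibroblast/tenocyte-like cells (0.0074 to 0.23), Slc40a1 in fibroblast/tenocyte-like cells (-0.31 to 0.082), Cd163 in macrophage/monocyte-like cells (-1.005 to 0.59), Fth1 in myofibre-like cells (-0.32 to 0.15), Tfrc in myofibre-like cells (-0.57 to 0.75), Slc11a1 in the Gpnmb-led cluster (-0.16 to 0.057), Hmox1 in the H2-Aa-led cluster (-0.14 to 0.24), Ftl1 in the H2-Aa-led cluster (-0.14 to 0.12), Hp in the H2-Aa-led cluster (-0.044 to 2.66), Hmox1 in the F13a1-led cluster (-0.023 to 0.32), Ftl1 in the F13a1-led cluster (-0.010 to 0.24), Slc11a1 in the F13a1-led cluster (-0.12 to 0.22), Hmox1 in the Ddah1-led cluster (-0.56 to 0.45), Tfrc in the Ddah1-led cluster (-0.069 to 0.74) and Tfrc in all kept cells (-0.044 to 0.13). The numbers of genes called by edgeR were 183 in dendritic-like, 51 in endothelial-like, 1488 in fibroblast/tenocyte-like, 573 in macrophage/monocyte-like, 0 in myofibre-like, 1189 in myogenic-like, 303 in the Gpnmb-led, 142 in the H2-Aa-led, 470 in the F13a1-led and 444 in the Ddah1-led cluster, and 180 in the interaction. Apart from fits that leave out 1 library, counts of calls under an alternative are listed where they differ from the main fit by more than 1.5-fold. They are also listed where only one of the counts is 0. With DESeq2 the number was 116 in dendritic-like, 82 in endothelial-like and 49 in myofibre-like cells, and the members called were 0 in dendritic-like, 2 in fibroblast/tenocyte-like cells, 3 in the F13a1-led and 2 in the Ddah1-led cluster. With no count filter genes called were 510 in dendritic-like, 202 in endothelial-like, 2268 in fibroblast/tenocyte-like, 1316 in macrophage/monocyte-like, 259 in myofibre-like, 2115 in myogenic-like, 734 in the Gpnmb-led, 426 in the H2-Aa-led, 905 in the F13a1-led and 847 in the Ddah1-led cluster, and members called were 3 in dendritic-like, 2 in fibroblast/tenocyte-like, 1 in myofibre-like and 3 in myogenic-like cells and 4 in the F13a1-led cluster. At a Leiden resolution of 2 they were 59 genes in dendritic-like and 3238 genes in fibroblast/tenocyte-like cells, with 0 members in endothelial-like and 3 in fibroblast/tenocyte-like cells. With at most 10% mitochondrial UMIs 0 members were called in dendritic-like cells, and with at least 1000 UMIs or at least 500 genes per cell 2 were called in myogenic-like cells. Among smaller changes, members called in macrophage/monocyte-like cells went from 2 to 3 with no count filter and at a Leiden resolution of 2. In the Gpnmb-led cluster they went from 2 to 3 with DESeq2. Without both CLL 2 and SHAM 3, genes called were 194 in macrophage/monocyte-like, 7 in myofibre-like, 346 in myogenic-like cells, 26, 3 and 255 in the Gpnmb-led, H2-Aa-led and F13a1-led clusters and 0 in the interaction, and members called were 1 in macrophage/monocyte-like, 0 in myogenic-like cells, 0, 0 and 3 in those clusters and 2 in the Ddah1-led cluster. The cause was not tested for any of these, beyond the smaller number of libraries where some were left out.

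Leaving out 1 library at a time, genes called ranged from 11 to 893 in dendritic-like, 34 to 62 in endothelial-like, 853 to 1395 in fibroblast/tenocyte-like, 67 to 737 in macrophage/monocyte-like, 292 to 2270 in myogenic-like, 65 to 751 in the Gpnmb-led, 2 to 427 in the H2-Aa-led, 159 to 675 in the F13a1-led and 201 to 602 in the Ddah1-led cluster, and from 7 to 427 in the interaction, with 0 each time in myofibre-like cells. Members called ranged from 0 to 2 in dendritic-like, 0 to 2 in fibroblast/tenocyte-like, 0 to 3 in macrophage/monocyte-like, 0 to 4 in myogenic-like, 1 to 3 in the Gpnmb-led, 0 to 2 in the H2-Aa-led, 1 to 4 in the F13a1-led, 1 to 2 in the Ddah1-led cluster and 2 to 7 in all kept cells, and from 0 to 1 in the interaction, with 1 each time in endothelial-like and 0 in myofibre-like cells. The Hmox1 share of cells and the ratio of Fth1 to Ftl1 cannot pass 0.05 with 3 libraries a group, so their p-values say nothing about stability.

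No label says that libraries with the same number share a litter, batch or day. Outside endothelial-like cells the correlation of same-numbered libraries' deviations lay between -0.26 and 0.32 and was over 0.1 for all 3 numbers in 0 classes. With replicate number as a block genes called were 118 in endothelial-like cells, 311 in the F13a1-led and 231 in the Ddah1-led cluster, and members called were 0 in dendritic-like and 2 in myogenic-like cells, 2 in the F13a1-led and 2 in the Ddah1-led cluster.

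Depth limits the low members. In dendritic-like cells Slc11a1 rests on 0 to 6 UMIs per CLL library, in endothelial-like cells Steap4 on 0 to 3, and in the H2-Aa-led cluster Slc40a1 on 0 to 5. Class and cluster names were rebuilt here. Counting error alone would understate the spread between mice, of which there were 3 a group.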

Other observations

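Classes too small for a test in every library also carried members, and their values are given without a test. Adipocyte-like cells, with 17, 647 and 23 cells in CLL, against 4, 4 and 2 in SHAM, had Hp at 12254, 22993 and 27604 CPM in the CLL libraries, against 6753, 440.3 and 2075 CPM in the SHAM libraries. Hp is made by fat cells as well as by liver. CLL values all lay above SHAM values there, but 2 of the SHAM libraries rest on 4 cells each and the third on 2. The haem-binding Hpx had, in the same cells, 7, 63 and 17 UMIs in CLL, against 0, 0 and 0 in SHAM. Steap4, which was first described in adipocytes, stood at 227, 218 and 284 CPM in the CLL libraries, against 551, 0 and 16.3 CPM in the SHAM libraries, with overlap.

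Neutrophil-like cells, with 24, 29 and 15 cells in CLL, against 66, 1 and 0 in SHAM, had Hp at 414, 549 and 27.0 CPM in the CLL libraries, against 469 and 0 CPM in SHAM 1 and SHAM 2. Haptoglobin is stored in neutrophil granules. Mural-like cells had Slc11a1 at 50.2, 23.9 and 119.6 CPM in the CLL libraries, against 59.9, 144 and 75.9 CPM in the SHAM libraries, with overlap, and Hmox1 at 89.2, 55.7 and 9.97 CPM in the CLL libraries, against 49.3, 8.83 and 37.2 CPM in the SHAM libraries.

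The dividing Nusap1-led macrophage-like cluster had Tfrc at 26.2, 18.9 and 14.6 CPM in the CLL libraries, against 28.7, 0 and 19.4 CPM in the SHAM libraries, from 17, 6 and 7 UMIs in CLL, against 11, 0 and 8 in SHAM. Transferrin receptor is known to be high in dividing cells. Hmox1 there stood at 119, 214 and 225 CPM in the CLL libraries, against 123, 22.4 and 94.8 CPM in the SHAM libraries, and Slc40a1 at 4.63, 9.43 and 10.4 CPM in the CLL libraries, against 33.9, 22.4 and 4.86 CPM in the SHAM libraries, from 3, 3 and 5 UMIs in CLL, against 13, 1 and 2 in SHAM.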
